A study of Mus musculus with 9 samples.

Results

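The 10 genes described here are Lgr5, Ret, Parm1, Art4, Dlg5, Pafah1b3, Zkscan16, Rbm44, Fbxw13 and Adgb, out of 18193 genes with a probe set of their own on Affymetrix mouse expression arrays. They were picked because their signal was among the most reduced in germinal center (GC) B cells with both Foxo1 alleles floxed (KO) relative to cells with both intact (WT). The KO vs WT values of the 10 genes are therefore given as a description, with no test. All 16 probe sets annotated to them by a single symbol were read: 5 genes had 1, 4 genes had 2 and Dlg5 had 3. Under the name "nearly lost" the group is uneven. The KO mean was between 14.6% and 40.9% of the WT mean (median 17.3%), Pafah1b3 kept the most, and 1 KO array read Rbm44 within the WT range. For Lgr5, Adgb, Art4 and Fbxw13, which had the 14.6%, all 3 KO arrays read under the median signal of their array. For Ret, Dlg5 and Rbm44 2 of 3 did. The percentages of these genes describe readings and are no measure of the level that remained.

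The arrays fall into 3 genotypes with 3 arrays each: KO (FOXO1f/f), HET (FOXO1f/+, 1 floxed allele) and WT (FOXO1+/+). All animals, WT included, carried Cg1-Cre, a recombinase expressed from the antibody gamma1 constant region locus and so active in the B cells that enter the response. All were 10 weeks old, had been injected repeatedly with sheep red blood cells, and gave up their spleens on day 12, when B220hi PNAhi CD95hi cells were sorted. The sample labels name 1 single animal per array, whereas the series' design text speaks of pooled spleen cells, so p-values measure the spread between these arrays. Foxo1 itself, read by its brightest probe set, averaged 1034 ± 335 in KO, 3564 ± 77.9 in HET and 5449 ± 159 in WT (SD, n = 3 each). Further Foxo1 sets averaged 679 and 129 in KO, 2313 and 451 in HET and 3864 and 812.5 in WT. Another set went the other way, at 69.2 in KO, 78.5 in HET and 50.9 in WT. Where these probes lie relative to the floxed part of the gene was not analysed here. The summed signal of 11 GC B cell markers was 68160 to 70260 on KO, 68780 to 69930 on HET and 66640 to 73460 on WT arrays, and 0 of the 11 stayed under the array median throughout. Within that sum Gcsam, a GC signaling adaptor gene, fell in KO vs WT (1465 in KO, 4119 in HET and 3770 in WT, log2 change -1.36, SE 0.12, limma adjusted p = 1.52e-05), Fas and Ptprc rose (0.30 and 0.19, calls lost in 2 and 12 of 23 alternatives) and 8 did not pass, where 11.9% of all genes were called. The summed signal of 10 myeloid markers was 1351 to 1907 on KO, 680 to 1555 on HET and 513 to 991 on WT arrays (5 of the 10 below the array median everywhere), and that of 7 plasma cell markers 25410 to 27800 on KO, 21010 to 22490 on HET and 20330 to 21660 on WT arrays (1 of the 7 below it everywhere). Of 6 plasma cell markers tested in KO vs WT, 4 rose (Slpi by 1.11, Sdc1 by 1.00, Prdm1 by 0.86 and Irf4 by 0.61 on the log2 scale) and 2, Jchain and Xbp1, did not pass, and the call of Sdc1 was lost in 2 of 23 alternatives. Of 5 myeloid markers tested, 3 rose (Cd68, Lyz2 and Csf1r) and 2 (C1qb and Adgre1) did not pass, with Lyz2 lost in 4 and Csf1r in 11 of 23 alternatives. The part of either in the results below was not tested. In bulk RNA, fewer cells that express a gene and less RNA per cell cannot be told apart.

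FOXO1 is a forkhead transcription factor that enters the nucleus when PI3K and AKT signaling is low and binds DNA at sequences built on the core AAACA. In the GC, where B cells alternate between a dark zone of division and mutation and a light zone of selection by T cells, FOXO1 is known for its part in the dark zone program. The 10 genes have no common pathway in the textbooks: they encode 2 surface receptors, a mucin-like protein, a blood group protein, a scaffold, a lipid enzyme subunit, a zinc finger protein, an RNA-binding protein, an F-box protein and a globin relative.

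Of the 10 genes, 4 (Dlg5, Parm1, Art4 and Adgb) had an entry among the RefSeq promoters of GRCm38.p6. The 250 bases before the start were searched on both strands for GTAAACA (the forkhead consensus), CAAAACA (the insulin response element core) and AAACA (the forkhead core, also contained in the other motifs). The promoters of Dlg5 (chr14:24245921-24246170, minus strand) and Parm1 (chr5:91517450-91517699, plus strand) are shown because they held a match, with matches in capitals.
Dlg5 promoter: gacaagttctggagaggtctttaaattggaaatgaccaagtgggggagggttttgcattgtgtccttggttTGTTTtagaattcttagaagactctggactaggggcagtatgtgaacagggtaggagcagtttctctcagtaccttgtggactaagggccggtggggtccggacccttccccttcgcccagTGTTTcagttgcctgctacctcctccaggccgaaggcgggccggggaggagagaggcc
Parm1 promoter: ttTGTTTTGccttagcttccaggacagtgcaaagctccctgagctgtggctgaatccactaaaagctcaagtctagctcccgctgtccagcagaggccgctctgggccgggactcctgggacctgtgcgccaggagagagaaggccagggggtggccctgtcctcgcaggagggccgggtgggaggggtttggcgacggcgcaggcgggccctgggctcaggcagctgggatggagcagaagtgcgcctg
In Dlg5 the core occurred at 2 places, starting 179 and 58 bases before the start, each as its reverse complement TGTTT. In Parm1 a single TGTTTTG, the reverse complement of CAAAACA, began 248 bases before the start. Adgb and Art4 held none of the 3 motifs in this window. Over all 32851 promoter entries of the same length, 3.17% held GTAAACA, 5.56% CAAAACA and 46.4% AAACA. A match is a string of letters and not a binding site.

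Signals are MAS5 values on a linear scale, and differences are of log2(signal + 2.09), where the offset shrinks differences between dim readings. A probe set below the median signal of its array, which was 47.4 to 48.0 on KO arrays, 44.0 to 45.0 on HET arrays and 42.9 to 44.8 on WT arrays, is called dim there. Folds against a gene dim on all arrays of a group are lower bounds, taken against the array median. On their brightest probe sets, 4 of the 10 genes were dim on all 3 KO arrays, 3 on some and 3 (Zkscan16, Parm1 and Pafah1b3) on none. KO and WT arrays did not overlap for 9 of the 10, a separation that 13.5% of all 10331 tested genes showed in this direction and that follows here from the choice of the genes. The KO vs HET calls given below for single genes reuse the low KO readings for which the genes were picked. They are a description. The 4 genes dim on all 3 KO arrays passed the filter against dim probe sets only through HET and WT.

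**Figure D1:**
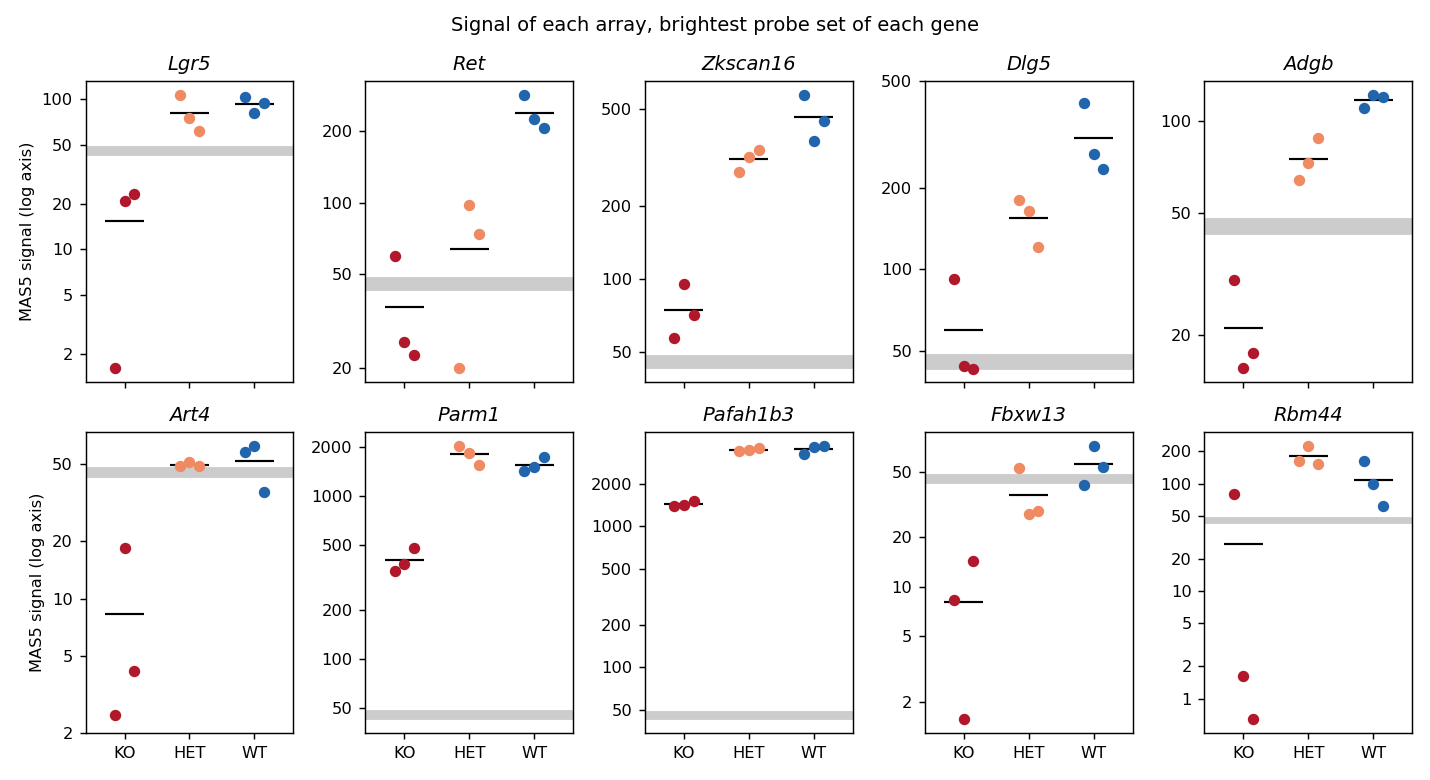
MAS5 signal (log axis) of each array in KO, HET and WT for the brightest probe set of each of the 10 genes. Points are arrays, black bars are group means, and the gray band spans the array medians (42.9 to 48.0). Ret has its HET arrays with the KO arrays or between the groups, Rbm44 has 1 KO array at 80.5, and in Parm1 the HET arrays reach 2035.

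Lgr5 encodes a receptor for R-spondins that marks stem cells of the gut and hair follicle and strengthens Wnt signaling. Its brighter probe set read 1.62, 21.0 and 23.5 on the KO arrays, 107.3, 74.7 and 61.9 on the HET arrays and 103.4, 80.5 and 94.2 on the WT arrays. All KO arrays were dim and lay below every HET and WT array, while HET and WT overlapped. The KO level was at least 1.9-fold below WT (means 15.4 ± 12.0 and 92.7 ± 11.6, SD, n = 3 each). Against HET (81.3 ± 23.4), Lgr5 was at least 1.63-fold lower in KO (log2 difference of the readings -2.65, SE 0.58, limma adjusted p = 0.0142). That call was lost without HET replicate 1 (adjusted p = 0.0516) and in eBayes without trend (adjusted p = 0.0536), with adjusted p from 0.00100 to 0.0536 over 23 alternatives. Without KO replicate 1, which read 1.62, the KO minus WT difference of the readings was -1.96 in place of -2.86, both against KO signals under the array median.

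Ret encodes a receptor tyrosine kinase for the GDNF family of ligands, needed for the enteric nervous system and the kidney and known in lymphoid tissue mainly from gut organogenesis. The KO arrays read 59.7, 25.9 and 22.7, the HET arrays 20.0, 97.3 and 73.5 and the WT arrays 285.5, 225.2 and 205.7. KO replicates 2 and 3 and HET replicate 1 were dim. Ret was the 1 gene of the 10 whose HET arrays overlapped KO and lay apart from WT: the highest HET array read 97.3 and the lowest WT array 205.7. The HET mean was 26.6% of WT (63.6 ± 39.6 against 239 ± 41.6, SD, n = 3 each) and the KO mean 15.1%. The HET minus WT difference of -2.12 (SE 0.49, 95% interval -3.18 to -1.06) did not pass over all genes (limma adjusted p = 0.682). KO and HET differed by -0.65 (SE 0.49, 95% interval -1.71 to 0.41, adjusted p = 0.458), which also did not pass.

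Parm1 encodes a mucin-like membrane protein first described in the prostate. It read 348, 383 and 481 on KO arrays, 2035, 1845 and 1545 on HET arrays and 1423, 1518 and 1728 on WT arrays. The KO arrays lay far below both other groups, and the HET mean was the highest of the 3, although HET and WT overlapped. Relative to HET, Parm1 fell by 2.16 on the log2 scale (SE 0.13, limma adjusted p = 1.27e-06), and relative to WT the KO difference was -1.95. The HET minus WT difference was 0.21 (SE 0.13, 95% interval -0.072 to 0.49, adjusted p = 0.998).

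Art4 encodes an ectoenzyme-like protein of the ADP-ribosyltransferase family that carries the Dombrock blood group in humans. KO arrays gave 2.47, 18.3 and 4.20, HET arrays 49.3, 51.2 and 49.2 and WT arrays 57.8, 62.6 and 35.9. All readings of this gene were near or under the array median (WT replicate 3 was dim too), so the KO level is only known to be at least 1.06-fold below WT and at least 1.05-fold below HET. The fit called Art4 lower in KO than in HET (log2 difference of the readings -2.64, SE 0.50, limma adjusted p = 0.00584). With all KO arrays dim, that difference gives no size beyond the bound. The means were 8.31 ± 8.67 in KO, 49.9 ± 1.11 in HET and 52.1 ± 14.2 in WT (SD, n = 3 each). Of 7 erythroid and platelet markers on the array, 4 were dim on all 9 arrays, and the summed signal, mostly of the transferrin receptor gene Tfrc, was 5326 to 5355 on KO, 5381 to 5775 on HET and 5508 to 6093 on WT arrays. The hemoglobin gene Hba-a1 read 1.29 ± 0.161 in KO, 1.59 ± 1.35 in HET and 1.84 ± 1.47 in WT (SD, n = 3 each).

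Dlg5 encodes a MAGUK scaffold protein that organizes cell polarity and cell junctions. Its brightest probe set read 92.4, 43.7 and 42.9 in KO, 181, 165 and 121 in HET and 414, 269 and 236 in WT. KO replicates 2 and 3 were dim. The 3 groups followed each other without overlap, with HET between the others. Dlg5 fell by 1.43 in KO relative to HET (SE 0.30, limma adjusted p = 0.0107). The HET minus WT difference of -0.95 (SE 0.30, 95% interval -1.59 to -0.30) did not pass (adjusted p = 0.998).

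Pafah1b3 encodes a catalytic subunit of the intracellular type of platelet-activating factor acetylhydrolase, a lipid enzyme. KO arrays read 1390, 1410 and 1513, HET arrays 3419, 3450 and 3563 and WT arrays 3217, 3616 and 3706. The KO arrays were tight and low, and HET and WT overlapped. Relative to HET, Pafah1b3 fell by 1.27 (SE 0.067, limma adjusted p = 5.32e-07). The HET minus WT difference was -0.012 (SE 0.067), with a 95% interval of -0.16 to 0.13 that bounds any change at this scale. The gene is thus reduced rather than lost, at 40.9% of WT in KO, and 55 genes outside the group had a KO minus WT difference at least as negative. For Parm1, the next in order, that number was 9, and 8 of the 10 largest differences belonged to the group. The other 2 were those of the gene model A630023P12Rik (-2.85) and of Foxo1 (-2.45). The next gene down, outside the group, was Pdzd2 at -2.33.

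Zkscan16 encodes a zinc finger protein with SCAN and KRAB domains, a class of DNA-binding repressors. The KO arrays read 57.1, 95.4 and 70.7, the HET arrays 275, 317 and 339 and the WT arrays 572, 370.1 and 447. No group overlapped another, and no array was dim. Zkscan16 fell by 2.05 relative to HET (SE 0.20, limma adjusted p = 5.71e-05), and the HET minus WT difference was -0.56 (SE 0.20, 95% interval -0.998 to -0.12, adjusted p = 0.998).

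Rbm44 encodes an RNA-binding protein known in mice from the intercellular bridges of germ cells. Its KO arrays read 80.5, 1.62 and 0.643, the HET arrays 161, 225.1 and 151 and the WT arrays 163, 99.4 and 61.9. KO replicate 1 lay above WT replicate 3, and the other two KO arrays were at the bottom of the scale, so the KO mean of 27.6 ± 45.8 (SD, n = 3) stands for no array. The KO minus WT difference of the readings was -3.44, and -5.01 without KO replicate 1. As the other two KO arrays were dim, the level without replicate 1 is only known to be at least 2.05-fold below WT and at least 3.58-fold below HET. The fit called Rbm44 lower in KO than in HET (log2 difference of the readings -4.24, SE 0.95, limma adjusted p = 0.0153). That call was lost without KO replicate 2 (adjusted p = 0.0607), without HET replicate 2 (adjusted p = 0.0563), in eBayes without trend (adjusted p = 0.0662) and in robust eBayes (adjusted p = 0.101), with adjusted p from 8.66e-06 upwards over 23 alternatives. The HET mean was 166% of WT, with 2 of the 3 HET arrays within the WT range (HET minus WT 0.80, SE 0.95, adjusted p = 0.998).

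Fbxw13 encodes an F-box and WD repeat protein of a rodent cluster of close copies, and signal from copies cannot be told apart here. KO arrays read 8.34, 1.57 and 14.4, HET arrays 52.4, 27.6 and 28.7 and WT arrays 41.6, 71.7 and 53.3. KO arrays were dim and below the rest, and 2 of 3 HET arrays and 1 of 3 WT arrays were dim too. The KO level was at least 1.13-fold below WT (8.11 ± 6.43 against 55.5 ± 15.1, SD, n = 3 each), and no bound above 1 could be given against HET. The fit called Fbxw13 lower in KO than in HET (difference of the readings -2.10, SE 0.52, limma adjusted p = 0.0256), but with all KO and 2 of 3 HET arrays dim this compares readings mostly under the array median and gives no size of a fall. The call was lost with an offset of 64 (adjusted p = 0.0554), in eBayes without trend (adjusted p = 0.0526), with only the groups compared (adjusted p = 0.0770) and without KO replicate 2, HET replicate 2 or HET replicate 3 (adjusted p = 0.0596, 0.0539 and 0.0520). The filter dropped Fbxw13 in 4 further alternatives.

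Adgb encodes androglobin, a globin relative known from the testis. Its single probe set read 30.2, 15.6 and 17.5 on KO arrays, 64.2, 73.1 and 88.1 on HET arrays and 110.4, 122 and 120 on WT arrays. The groups followed each other without overlap and all KO arrays were dim. The KO level was at least 2.40-fold below WT and at least 1.54-fold below HET. The fit called Adgb lower in KO than in HET (log2 difference of the readings -1.78, SE 0.27, limma adjusted p = 0.00140). That difference gives no size beyond the bound. Adgb was picked for low KO readings and passed the filter only through HET and WT, so the call is a description. The HET minus WT difference was -0.64 (SE 0.27, 95% interval -1.23 to -0.049, adjusted p = 0.998).

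Further comparisons used the HET arrays. The genes were picked for their falls in KO, and whether HET readings played a part in the choice is not known. Each of these comparisons also shares its KO or WT arrays with KO vs WT. In KO vs HET, 9 of the 10 genes were called lower (Fbxw13 among mostly dim readings) and Ret did not pass, against a background of 9.01% of 10331 genes called, 4.45% lower and 4.56% higher. KO and HET arrays were apart for the same number, 9 of 10, against 13.1% of all genes. As the genes were picked for low KO readings, a lower KO level than in HET is favoured by the choice. Lgr5, Adgb, Art4 and Fbxw13, dim on all KO arrays, also passed the filter only through HET and WT. Neither count therefore supports anything about the group, and the KO vs HET calls of single genes are a description. In HET vs WT limma called 0 of the 10, against 0.00968% of all genes, which is 1 gene, and that one was higher. At the same time 4 of the 10 (Ret, Zkscan16, Dlg5 and Adgb) were under an unadjusted p of 0.05, against 4.21% of all genes. The same 4 had every HET array below every WT array, against 4.89% of all genes. As the genes were picked partly for high WT readings, a lower HET level is favoured by the choice. The median log2 difference of the 10 was -2.08 in KO vs HET, against 0.010 over all genes, and -0.39 in HET vs WT, against 0.0023 over all genes.

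The position of HET between the other genotypes differed from gene to gene. Expressed as a share of the KO fall on the log2 scale, the HET fall was 76.5% for Ret, 39.9% for Dlg5, 26.5% for Adgb, 22.6% for Fbxw13 and 21.4% for Zkscan16. It was 7.49% for Lgr5, 0.958% for Pafah1b3 and 0.825% for Art4, and it was negative for Parm1 (-10.9%) and Rbm44 (-23.3%), where HET stood above WT. For Lgr5, Adgb, Art4 and Fbxw13, dim on all KO arrays, the KO fall rests on readings under the array median. For Ret, Dlg5 and Rbm44, dim on 2 of 3 KO arrays, it rests on them in part. The shares of all these genes and their place in the order are therefore not exact. For Foxo1 the share was 25.0% on its brightest probe set, and 29.4% and 32.0% on the further sets that fell in KO. On linear signals the shares were 86.4% for Ret and 61.1% for Dlg5, the 2 genes past the midpoint on that scale, between 39.4% and 44.0% for Adgb, Fbxw13 and Zkscan16, and 42.7% for Foxo1 (48.7% and 52.9% on its further sets). They were 14.8% for Lgr5, 4.98% for Art4, 1.73% for Pafah1b3, -21.9% for Parm1 and -88.0% for Rbm44.

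HET minus the midpoint of KO and WT measures this shape, and with equal groups its estimate is orthogonal to that of KO vs WT. Both contrasts share the same estimate of the spread. Parm1 and Pafah1b3 ranked 18 and 65 among the KO falls, so size alone does not account for the choice of genes. Independence from that choice is not established, and the counts below are a description. Of the 10 genes, 2 were called and both were higher than the midpoint, against a background of 0.997% of all genes called in either direction and 0.639% called higher. Unadjusted, 7 of the 10 were under 0.05, against 10.8% of all genes. Pafah1b3 departed by 0.63 (SE 0.058, limma adjusted p = 2.05e-04) and Parm1 by 1.19 (SE 0.11, adjusted p = 2.59e-04). Both calls held in all 22 alternatives, with adjusted p of at most 0.00900 and 0.00977. The other 8 did not pass. Of these Zkscan16 came closest (0.75, SE 0.18, adjusted p = 0.0788), and it was called with arrays centred on their median (adjusted p = 0.0456) and without KO replicate 2 (adjusted p = 0.0334), over a range of 0.0334 to 0.279. Ret was the 1 gene below the midpoint (-0.73, SE 0.42, adjusted p = 0.599). Foxo1 stood 0.61 above it (SE 0.14, adjusted p = 0.0696). Fitted over all kept probe sets, the second Foxo1 set was called (0.52, SE 0.097, limma adjusted p = 0.0338). The other Foxo1 sets were not (adjusted p from 0.0796 to 0.609). The midpoint of log2 values lies under that of linear signals, so a gene whose signal follows the number of intact alleles departs upwards as well.

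**Figure D2:**
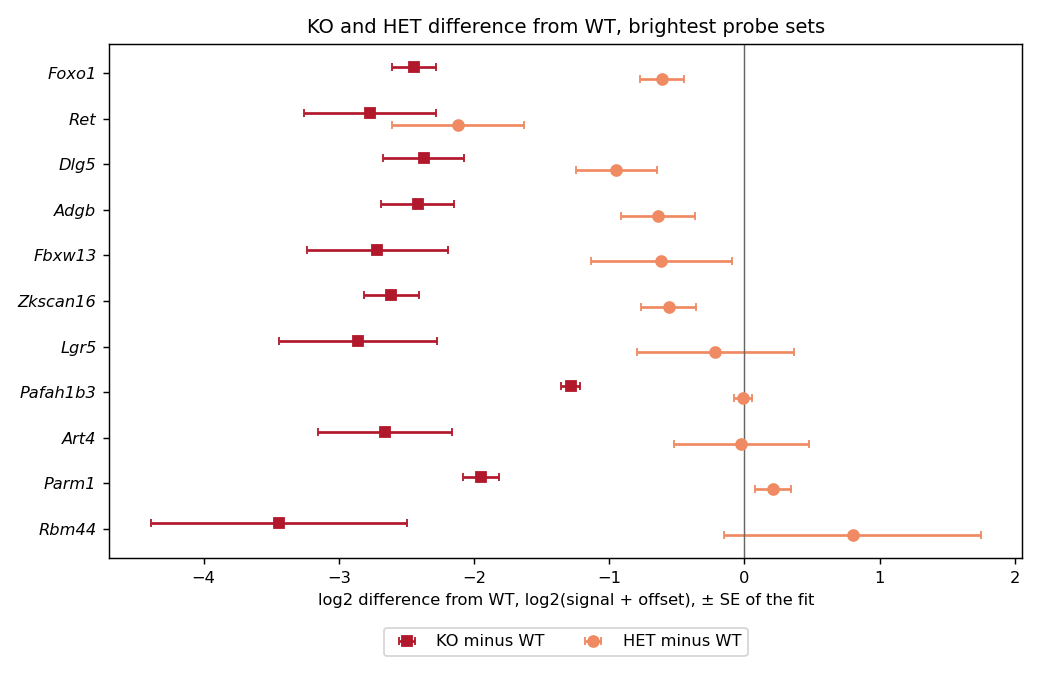
Difference from WT on the log2 scale (x axis) for KO (squares) and HET (circles) of Foxo1 and the 10 genes, with the SE of the limma fit. Foxo1 stands at the top, outside the order. Below it, from top to bottom, the HET fall shrinks from 76.5% of the KO fall in Ret to -23.3% in Rbm44. The order is not exact for Lgr5, Adgb, Art4 and Fbxw13, dim on all 3 KO arrays, and for Ret, Dlg5 and Rbm44, dim on 2 of 3.

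Where a gene had several probe sets they pointed the same way in KO, with sizes that differed. All 16 probe sets had a lower mean log2 signal in KO than in WT, and in 14 of them the KO and WT arrays did not overlap, the exceptions being both sets of Rbm44. Over all 34945 probe sets of 1 symbol 9.11% were apart in this direction. The 16 include the 10 sets on which the genes were picked and 2 sets dim on all 9 arrays, so the count is a description. For Parm1 the KO minus WT differences were -1.95 and -1.66, and the sets had a correlation of 0.99 over the 9 arrays, which share their libraries. The second Parm1 set read 1022, 976 and 901 in HET against 719, 874 and 750.4 in WT. There every HET array lay above every WT array, as in 4.96% of all genes, whereas the brighter set overlapped. Fitted over all 19479 kept probe sets, it fell by 1.97 relative to HET (SE 0.13, limma adjusted p = 1.78e-06) and departed from the midpoint by 1.14 (SE 0.11, adjusted p = 2.33e-04).

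The second Lgr5 set read 6.52, 6.27 and 4.23 in KO, 50.1, 43.3 and 55.1 in HET and 34.7, 44.3 and 30.3 in WT. It repeated the split of KO from the other groups at lower signals (correlation between the sets 0.797). All 3 KO, 1 of 3 HET and 2 of 3 WT arrays were dim, so it passed the filter only through HET and WT. Its HET departure was called over the kept probe sets (1.59, SE 0.29, adjusted p = 0.0338), while that of the brighter set was not (adjusted p = 0.467). The midpoint of the second set rests mostly on readings under the array median, so 1.59 gives no size and the call is a description. With no filter the second set did not pass either (adjusted p = 0.0680). For Ret the second set was dim on all 9 arrays. Among these readings under the array median every WT array (24.6, 23.0 and 18.3) was above every HET array (11.2, 6.60 and 13.6) and KO array (12.6, 1.65 and 4.93). The second Dlg5 set, whose suffix marks probes shared between transcripts, read 10.3, 38.8 and 20.7 in KO, 41.2, 51.8 and 49.2 in HET and 83.0, 66.7 and 55.3 in WT. It kept the order of the 3 groups without overlap, and its KO minus HET difference of -1.13 did not pass (SE 0.38, adjusted p = 0.114). The third Dlg5 set was dim on all 9 arrays and KO and HET overlapped there. The second Rbm44 set read 52.7, 4.93 and 1.26 in KO, 82.3, 56.7 and 24.2 in HET and 44.9, 24.3 and 19.9 in WT. Its KO replicate 1 was above every WT array, so that both sets put the same array apart, and relative to HET it did not pass (-2.22, SE 0.82, adjusted p = 0.142).

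**Figure D3:**
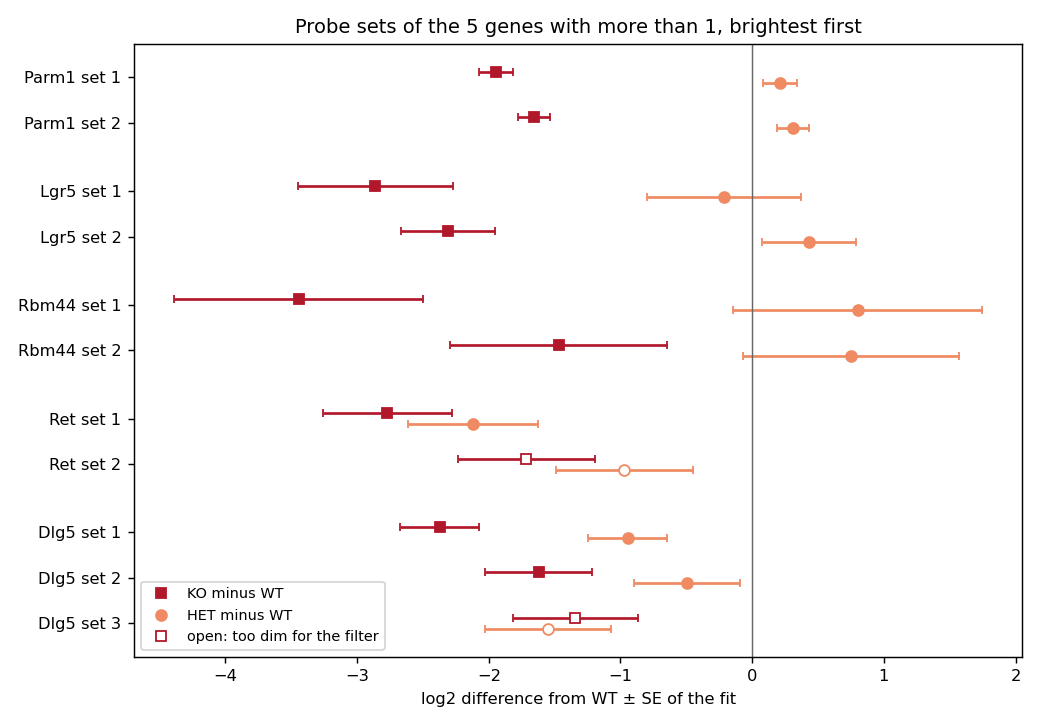
Difference from WT on the log2 scale with the SE of a limma fit over all probe sets of 1 symbol, for KO (squares) and HET (circles) and every probe set of the 5 genes with more than 1. Open symbols mark the 2 sets too dim for the filter, and all KO squares lie left of 0.

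Among the 3 genes with no dim KO array, the highest KO reading was on replicate 2 for Zkscan16 and on replicate 3 for Parm1 and Pafah1b3. Residual Foxo1 signal was highest on replicate 2, at 1392, against 984 and 727 on replicates 1 and 3. Over the 9 arrays the correlation of a gene with the mean of the other 9 was between 0.654 (Ret) and 0.969 (Pafah1b3), a likeness that the choice of genes low in KO and high in WT builds in. Outside the group, the genes with the most similar pattern to the mean of the 10 were Cd2, Mprip, Stk26, Hpgds, Thbd, Ido1, Nt5e and Cenpv, with correlations of 0.982 to 0.992 over the 9 arrays. Cd2, an adhesion receptor gene of lymphocytes, averaged 1311 ± 38.1 in KO, 2680 ± 14.8 in HET and 2930 ± 191 in WT (SD, n = 3 each). Nt5e, which encodes the ectoenzyme CD73, averaged 425 ± 75.2 in KO, 1172 ± 58.6 in HET and 1553 ± 80.7 in WT. Hpgds, a prostaglandin D synthase gene, averaged 142 ± 4.85 in KO, 332 ± 19.2 in HET and 456 ± 39.2 in WT.

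Genes next to the 10 along the chromosome were compared in KO vs WT, taking the nearest tested gene on each side in the RefSeq order of GRCm38.p6. Of these 20 neighbours, 10 were directly adjacent, and the rest lay beyond up to 15 protein-coding genes that were passed over. Among the 20, 2 fell, 0 rose and 18 did not pass, with a median difference of 0.021. Over all genes 5.85% were called lower and 6.09% higher. Both neighbours that fell stood beside Zkscan16. Ptgr1, which encodes a prostaglandin and leukotriene reductase, read 235 ± 43.2 in KO, 576 ± 56.2 in HET and 799 ± 108 in WT (SD, n = 3 each) and fell by 1.76 (SE 0.14, limma adjusted p = 1.15e-05). Ecpas, which encodes a proteasome adaptor, lies on the other side and fell by 0.32 (SE 0.062, adjusted p = 0.00537), a call lost when its probe sets were averaged (adjusted p = 0.108). The direct neighbours of Ret, Csgalnact2 (0.10, adjusted p = 0.452) and Bms1 (0.034, adjusted p = 0.873), did not pass. Beside Rbm44, Lrrfip1 averaged 5095 ± 233 in KO against 4990 ± 242 in WT (adjusted p = 0.790).

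**Figure D4:**
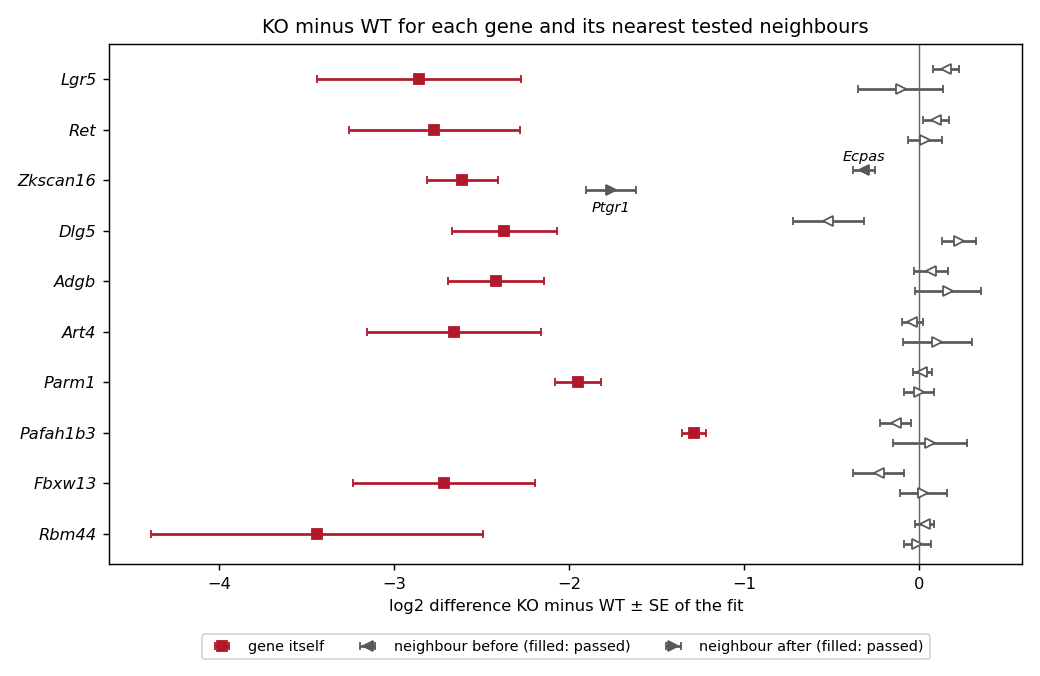
KO minus WT difference on the log2 scale with the SE of the limma fit, for the 10 genes (squares, chosen on this difference) and the nearest tested gene before and after each (triangles, filled where called). Of 20 neighbours 18 did not pass, and the 2 called, Ptgr1 at -1.76 and Ecpas at -0.32, flank Zkscan16.

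Paralogs and partners of the 10 genes were followed in the same comparison, in which 11.9% of all genes were called. Of 23 R-spondin, LGR and Wnt genes on the array 9 passed the filter that removes dim probe sets. Of these 9, 1 rose and 8 did not pass (median 0.21, against 0.011 over all genes). Rnf43, a ubiquitin ligase that removes Wnt receptors, rose by 1.21 (SE 0.31, limma adjusted p = 0.0254), a call lost without KO replicate 1 or 2, without WT replicate 1 or 3 and without the filter (adjusted p up to 0.102). The related receptor genes Lgr4 (234 ± 24.6 in KO, 182 ± 24.8 in WT, adjusted p = 0.236) and Lgr6 (66.3 ± 11.8 in KO, 53.7 ± 10.1 in WT, adjusted p = 0.618; SD, n = 3) did not pass. Of 6 tested genes among 23 of GDNF and RET signaling on the array, 1 fell and 1 rose. Plcg1, a phospholipase downstream of many tyrosine kinases, fell by 0.60 (SE 0.10, adjusted p = 0.00201) and held in all 23 alternatives. The adaptor gene Grb2 rose by 0.16 (SE 0.043, adjusted p = 0.0303), a call lost in 11 of 23 alternatives, among them arrays centred on their median (adjusted p up to 0.610).

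Among 17 tested MAGUK and polarity genes, Mpp6 fell by 0.35 (SE 0.065, adjusted p = 0.00397) and 16 did not pass (median 0.075). Averaging its probe sets lost the call of Mpp6 (adjusted p = 0.487). Dlg1 (2336 ± 186 in KO, 2196 ± 149 in WT; SD, n = 3) and Dlg3 (1019 ± 48.8 in KO, 994 ± 39.5 in WT) had differences of 0.088 and 0.036 that did not pass. The partners of PAFAH1B3 did not pass either. Pafah1b2, the other catalytic subunit, stood at 3727 ± 254 in KO and 3879 ± 171 in WT (difference -0.059, SE 0.063, adjusted p = 0.616), and the regulatory subunit gene Pafah1b1 at 3050.0 ± 257 in KO and 3380 ± 123 in WT (difference -0.15, SE 0.065, adjusted p = 0.162). Of the 4 genes of that list, Pla2g7, the secreted type, rose by 1.44 (SE 0.36, adjusted p = 0.0208). That call was lost without KO replicate 1 or 3, without WT replicate 3 and in eBayes without trend (adjusted p up to 0.0841). The 3 called myeloid markers, with the limits given above, moved with it, among them Lyz2 (334 ± 113 in KO, 102 ± 59.8 in WT; SD, n = 3), and their part in it was not tested.

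Calls in other families follow, in a comparison that called 11.9% of all genes. Their counts are no result about a family. Zkscan8 rose by 0.42 (SE 0.099, adjusted p = 0.0161) among 14 tested SCAN and KRAB zinc finger genes, and 13, Zkscan17 among them (-0.18, adjusted p = 0.398), did not pass. The call of Zkscan8 was lost in 4 of 23 alternatives (averaged probe sets, and without KO replicate 1 or 2 or WT replicate 2, adjusted p up to 0.324). Of 9 tested F-box and WD repeat genes, Fbxw2 rose by 0.33 (SE 0.094, adjusted p = 0.0400) and 8 did not pass, and Fbxw2 was not called in 14 of 23 alternatives, centring on the median included. Fbxw14, a close copy of Fbxw13, was too dim to test (1.34 ± 0.176 in KO, 4.78 ± 3.73 in WT; SD, n = 3). Of 5 tested membrane mucin genes, Spn, which encodes CD43, fell by 1.28 (SE 0.18, adjusted p = 5.97e-04), Cd164 rose by 0.18 (SE 0.049, adjusted p = 0.0348, lost in 9 of 23 alternatives) and 3 did not pass. The 1 tested ADP-ribosyltransferase gene, Art5, did not pass (adjusted p = 0.832), nor did 4 germ cell bridge genes, with Tex14, whose protein binds RBM44, at -0.41 (adjusted p = 0.340). Globin genes were too dim to test.

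As a yardstick, 17 tested genes reported as FOXO1 targets held 7 that fell, 0 that rose and 10 that did not pass, with a median of -0.27. Over all genes 5.85% were called lower and 6.09% higher. Of those that did not pass, Btg1, Ccng2, Fbxo32, Klf2, S1pr1, Sesn1 and Sesn3 had differences above 0. Gadd45a, Irs2 and Pik3ip1 had differences below 0. Bach2, a repressor of plasma cell fate, averaged 3652 in KO, 7927 in HET and 7634 in WT and fell by 1.06 (SE 0.061, adjusted p = 6.59e-07). Cxcr4, the dark zone chemokine receptor gene, averaged 5182 in KO, 7852 in HET and 7818 in WT. The death inducer gene Bcl2l11 fell by 0.45 (SE 0.072), and Cdkn1b, which encodes the cell cycle brake p27, by 0.49 (SE 0.099). Of the 7, Ctla4 was not called in 12 of 22 alternatives, Tsc22d3 in 5 of 23 and Insr in 1 of 23 (without WT replicate 2, adjusted p = 0.0501). The list was drawn up with earlier results of these arrays known, so its direction is not independent evidence.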

How the data were processed

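Per the labels' protocols, RNA of sorted cells was amplified with a NuGEN kit and biotin-labelled. The authors deposited 1 MAS5 intensity per probe set and array, per the submitters' processing notes, its version not given in the sources used here. The 2% trimmed mean of each array was 500.0. Of 45101 probe sets, 34945 had 1 gene symbol in the platform annotation, 932 several, 9160 none, and 64 were controls.

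Intensities were taken to log2(signal + 2.09), the offset being the 10th percentile of all deposited signals. Probe sets at their array's median on at least 3 of 9 arrays were kept (19479), and the brightest stood for its gene (10331 genes). One linear model over 9 arrays was fitted with limma 3.58.1 (lmFit, eBayes with trend) in R 4.3.3. Every adjusted p is limma's, two-sided, Benjamini-Hochberg over all features of that fit, called under 0.05, and intervals are at 95%. For arrays, their number limits the precision. Arrays of a genotype were numbered in order of deposition.

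The genes, lists and naming rule were chosen with earlier results of these data known. The rule named the 10 genes, Foxo1, close paralogs, for each list up to 4 genes of lowest adjusted p in KO vs WT, and the 8 genes outside the group with the most similar pattern. Neighbours along the chromosome and the promoter motifs were added after the data were seen, and of neighbours Ptgr1, Ecpas, Csgalnact2, Bms1 and Lrrfip1 were named after their values were seen, as were A630023P12Rik, Pdzd2, Hba-a1, Ctla4, Insr and Tsc22d3. The reported FOXO1 targets that did not pass were also named after their values were seen. No probe sequence was used.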

Additional observations from a re-analysis of the deposited data

How the results depend on the processing

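Besides the reported setting, 23 alternatives were run: other offsets, normalizations, filters, probe set rules, variance models, array weights, only the groups compared, and leaving out each of the 9 arrays. All 10 genes stayed lower in KO than in WT in every alternative that tested them; Fbxw13 was untested in 4 and Art4 in 1, both by the filter. Centring arrays on their median gave 2081 genes in KO vs WT, against 1233, left the median difference of all genes at -0.11, against 0.011, and made 19.1% of the calls higher, against 51%, as in KO vs HET (21.3% against 50.6%). Genes called in HET vs WT numbered 2 with an offset of 64 and 3 with robust eBayes, array weights or only the groups compared, against 1. Without trend, 31 genes departed from the midpoint, against 103. Leaving out 1 array gave 769 to 1180 genes in KO vs WT, 1 to 3 in HET vs WT, 543 to 893 in KO vs HET and 31 to 110 for the HET departure. Of the 10 genes it called 0 in HET vs WT, 7 to 9 in KO vs HET and 2 to 4 for the HET departure. The 4 were reached without KO replicate 2, where Zkscan16 (adjusted p = 0.0334) and Art4 (adjusted p = 0.0337) joined, and Rbm44 joined without KO replicate 1 (adjusted p = 5.01e-04). In KO vs HET 6 of the 10 genes were called without trend.

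HET minus WT changed sign where it was close to 0: for Lgr5 to 0.11 with averaged probe sets, and for Pafah1b3 to 0.00089 with array weights. Without 1 array, it ranged over -0.26 to 0.12 for Art4 and -0.074 to 0.028 for Pafah1b3. The cause was not tested. An offset of 64 brought the KO minus WT difference to -0.99 for Lgr5, -0.68 for Art4, -0.73 for Fbxw13 and -0.98 for Rbm44. Without KO replicate 2 that of Art4 was -3.30. On linear signals the HET share of the KO fall moved by more than the spread of the HET arrays for 6 of the 10 genes, and changed sign for 0. No paired analysis was possible because the labels give no replicate numbers that groups share. Signals under the array median limit Lgr5, Adgb, Art4 and Fbxw13 in KO to bounds. They leave the size for Ret, Dlg5 and Rbm44, dim on 2 of 3 KO arrays, uncertain. Having 3 arrays a group limits the precision of every difference.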
